A study of Homo sapiens with 12 samples.

Results

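The genes described here are 46 genes of the complement, clotting and fibrinolysis systems and the plasma protease inhibitors that restrain them. They were taken by gene name from the deposited expression table, which holds 22963 gene names, and all 46 were found. RNA was sequenced from 12 libraries of human hepatocellular carcinoma cell lines, in 4 groups of 3 labelled biological replicates. PLC/PRF5 cells carried an empty lentiviral vector (Vector) or overexpressed EGR1 from the coding sequence placed behind the CMV promoter of that vector (EGR1). MHCC97H cells were parental with a wild-type genotype (Mock, called parental below) or labelled EGR1 knockout (EGR1_KO). The knockout lines were made with CRISPR/Cas9 and grown from single clones. The paper states that western blots and sequencing of the DNA verified the knockouts of these clones. Which clone gave the RNA libraries is not given in the sources used here, so the knockout and the choice of a clone cannot be told apart. Each group comes from 1 cell line, so the p-values measure only the spread between replicate libraries of that line.

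Complement is a cascade of plasma proteases and adaptor proteins that marks targets with C3 fragments and ends in a membrane pore. Coagulation is a parallel protease cascade that ends when thrombin, made from prothrombin (F2), cuts fibrinogen into fibrin, and fibrinolysis is the digestion of that fibrin by plasmin. Serpins, alpha-2-macroglobulin and membrane regulators keep these proteases in check. Hepatocytes are the main source of most of these plasma proteins, and many of the genes belong to the acute phase response, in which interleukin-6 acts through STAT3 and C/EBP factors. EGR1 is a zinc-finger transcription factor that binds GC-rich sites.

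The 3 fibrinogen genes were among the 4 genes of the 46 with the largest rises in the libraries labelled knockout, and they stand side by side on chromosome 4, so their promoters are shown together. The promoter of PLAUR, the receptor of the urokinase plasminogen activator, is shown because it held the only match to the EGR1 motif among the promoters searched. Each line gives the 250 bases before the RefSeq transcription start, read 5′ to 3′ on the strand of the gene in GRCh38.p14, and capitals mark motif matches on either strand. The windows are chr4:154590743-154590992 (minus strand) for FGA, chr4:154562730-154562979 (plus strand) for FGB, chr4:154612657-154612906 (minus strand) for FGG and chr19:43670170-43670419 (minus strand) for PLAUR.
FGA: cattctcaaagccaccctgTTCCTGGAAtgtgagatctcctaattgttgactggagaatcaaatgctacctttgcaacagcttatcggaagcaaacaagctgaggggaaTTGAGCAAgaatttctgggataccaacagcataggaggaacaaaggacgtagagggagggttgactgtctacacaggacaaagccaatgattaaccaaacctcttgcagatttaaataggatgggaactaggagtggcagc
FGB: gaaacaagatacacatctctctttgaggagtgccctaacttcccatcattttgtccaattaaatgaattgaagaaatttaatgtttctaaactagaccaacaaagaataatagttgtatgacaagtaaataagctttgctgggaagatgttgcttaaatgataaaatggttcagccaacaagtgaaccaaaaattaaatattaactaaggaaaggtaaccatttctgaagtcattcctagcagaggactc
FGG: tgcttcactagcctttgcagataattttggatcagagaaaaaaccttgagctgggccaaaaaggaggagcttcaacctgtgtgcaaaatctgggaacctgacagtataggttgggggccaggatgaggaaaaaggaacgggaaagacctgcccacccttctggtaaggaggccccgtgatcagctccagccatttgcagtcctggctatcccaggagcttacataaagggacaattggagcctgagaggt
PLAUR: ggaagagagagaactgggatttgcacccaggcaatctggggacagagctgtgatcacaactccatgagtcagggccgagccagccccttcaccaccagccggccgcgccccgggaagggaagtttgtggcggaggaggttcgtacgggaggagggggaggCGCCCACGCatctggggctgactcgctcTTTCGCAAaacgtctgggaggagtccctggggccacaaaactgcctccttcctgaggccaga
In FGA the capitals mark, in reading order, a STAT3 match from 231 to 223 bases before the start and a C/EBP match from 141 to 134. The windows of FGB and FGG held no match to the motifs searched. In PLAUR the first capitals mark the EGR1 match, from 90 to 82 bases before the start, and the second a C/EBP match from 62 to 55. Places count from the RefSeq start of the window shown. By the GENCODE gene bounds, the windows of FGG and PLAUR lie inside the gene, whose start is further upstream. Those of FGA and FGB reach into the gene in part.

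The motifs were chosen after the expression values had been seen, and a match is only a run of letters. The RefSeq promoter table matched 38 of the 46 genes with 54 start windows, and A2M, C1S, C3, C8G, PLAT, SERPINC1, SERPINF2 and SERPING1 had no entry. The EGR1 motif GCGNGGGCG was in 1 of these 54 windows (1.85%) and in 8.41% of all 35116 windows of the table. The STAT3 motif TTCNNNGAA was in 12 windows of 11 genes (22.2%), against 6.57% of all. The C/EBP motif TTGNGNAA was also in 12 windows of 11 genes (22.2%), against 10.8%. The HNF4 motif CAAAGTCCA was in 0 of the 54 windows, against 0.325% of all. In C4BPB a STAT3 match and a C/EBP match shared a base, and no matches overlapped in the windows printed above.

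Expression was deposited as FPKM, the fragments of a transcript divided by its length and by the mapped total, so levels of different genes are compared below per length. Library sums of FPKM ran from 376335 to 437652. The number of reads is unknown, so no counting error is given, and values at or near 0 are given as listed. EGR1 itself had an FPKM of 1.97, 1.43 and 2.03 in the Vector libraries and 56.3, 50.2 and 52.2 in the EGR1 libraries. In MHCC97H cells its FPKM was 20.2, 23.1 and 21.2 in parental libraries and 35.2, 50.3 and 32.9 in those labelled knockout. As deposited, its mRNA was thus the higher there (log2 difference 0.83, limma adjusted p = 0.00126). Of all genes tested, 34.8% were called higher in this comparison. The EGR1 value was not corrected for transcript GC content and length. FPKM counts a transcript whether or not it makes protein, and the text keeps the wording "labelled knockout" for this reason. Of 11 liver markers, 10 had a mean FPKM of at least 1 in Vector libraries and 7 in parental MHCC97H libraries, where ALB (0.885 ± 0.305), APOA1 (0.322 ± 0.119), TTR (0.293 ± 0.0767) and AFP (0.424 ± 0.0985) were under 1 FPKM (SD, n = 3). HNF4A, a liver transcription factor, was at 9.64 ± 1.93 FPKM there (SD, n = 3). In every library the leukocyte marker PTPRC was at or under 0.0587 FPKM and the endothelial marker CDH5 at or under 0.229. COL1A2 was at or under 0.0276 FPKM and the platelet gene GP9 at 0. Other markers of these types were expressed. Group means reached 142 FPKM for LYZ (Vector), 53.8 FPKM for CD68 and 5.99 FPKM for PECAM1 (labelled knockout), and 8.68 FPKM for LUM (parental). KDR and PF4 reached 1.80 and 1.44 FPKM in the libraries labelled knockout. Whether other cell types were present was not tested.

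Levels of the 46 genes separated the cell lines. In Vector libraries 26 had a mean of at least 1 FPKM, 13 of at least 10 FPKM and 6 of at least 100 FPKM, and in parental MHCC97H libraries these counts were 18, 8 and 0. Together they made up 0.641% to 0.698% of the FPKM of a Vector library, 0.900% to 1.05% of an EGR1 library, 0.0655% to 0.0787% of a parental MHCC97H library and 0.0735% to 0.0840% of a library labelled knockout. SERPINA1 alone, the gene of alpha-1-antitrypsin, held 49.3% to 51.5% of the 46-gene sum in Vector libraries and 57.5% to 63.9% in EGR1 libraries. The 6 genes at or above 100 FPKM in Vector libraries were SERPINA1, VTN, FGA, C3, A2M and FGG. In parental MHCC97H libraries the highest levels were those of the membrane regulators CD46, CD55 and CD59 and the clotting inhibitor TFPI. All of them were under 100 FPKM on average.

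**Figure D1:**
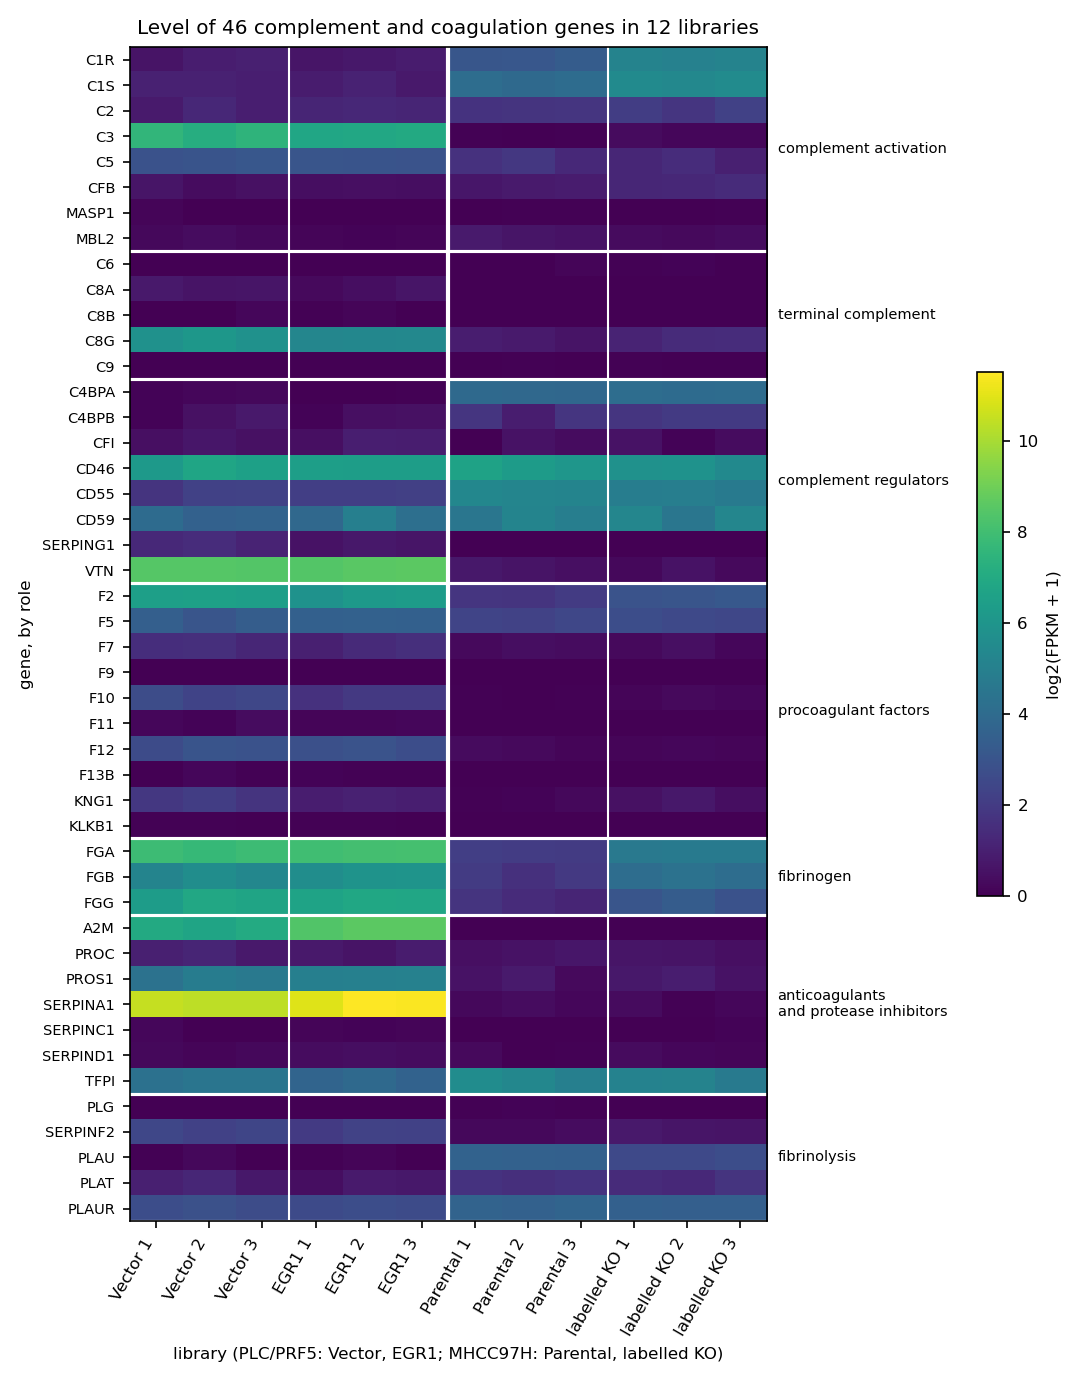
Level of each of the 46 genes (rows, grouped by role) in each of the 12 libraries (columns), as log2(FPKM + 1) on a colour scale that starts at 0. SERPINA1, VTN, FGA, C3, A2M and FGG are bright in the 6 PLC/PRF5 libraries, C1R, C1S, C4BPA, CD55 and PLAU are brighter in the 6 MHCC97H libraries, and 14 genes stay under 1 FPKM in every library.

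The cell lines made only parts of each cascade as RNA. Of the 46 genes, 14 stayed under 1 FPKM in all 12 libraries. These were C6, C8A, C8B and C9 of the membrane pore, CFI, MASP1 and MBL2 of complement control and the lectin pathway, the clotting genes F9, F11, F13B and KLKB1, the plasmin precursor PLG, and the thrombin inhibitors SERPINC1 (antithrombin) and SERPIND1 (heparin cofactor II). F9 was listed at 0 in all 12 libraries. Among those listed above 0, the highest single values ranged from 0.0473 FPKM (KLKB1) to 0.935 FPKM (CFI). C8G, which encodes the gamma chain of C8, stood apart from its partners: it had 59.4 ± 7.31 FPKM in Vector libraries, where C8A had 0.603 ± 0.0970 FPKM and C8B 0.0535 ± 0.0793 FPKM (SD, n = 3).

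With EGR1 overexpression in PLC/PRF5 cells, the protease inhibitors A2M and SERPINA1 rose, and so did FGB and PROS1, while KNG1, SERPING1, F10, TFPI, C8G, C3 and F2 fell. Differences were tested with limma on log2(FPKM + 1) over all genes with a mean of at least 1 FPKM in the 6 libraries, and a gene is called changed at a 2-sided adjusted p under 0.05. Of the 46 genes, 24 passed this filter, and KNG1 and SERPING1 did so with an EGR1 group mean under 1 FPKM. Of the 24, 11 were called (45.8%), against 29.6% of all 11671 genes tested. The 4 higher genes were 16.7% of those tested, against 19.2% of all genes, and the 7 lower genes were 29.2%, against 10.4% of all genes. The groups did not overlap in 13 of the 24, against 47.7% of all genes. Without Vector replicate 1, or without Vector replicate 3, the number called was 6 of 23 tested. Of all genes, 2349 of 11704 and 2246 of 11697 were then called. After a correction for transcript GC content and length it was 12 of 24 (3 higher and 9 lower), beside 3661 of 10829 among all genes. The median log2 fold change of the 24 was -0.01, against 0.09 for all genes. In bulk RNA, a lower share of cells that express a gene and less of its RNA per cell cannot be told apart.

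Among the protease inhibitors and anticoagulants, 4 of 7 genes were tested and all 4 were called, 3 higher and 1 lower. A2M encodes alpha-2-macroglobulin, a broad trap for proteases. Its FPKM was 126, 106 and 130 (129.9 before rounding) in Vector libraries and 331, 387 and 397 in EGR1 libraries. Every EGR1 library was above every Vector library, the means differed 3.09-fold (121 ± 13 against 372 ± 36.0, SD, n = 3), and the log2 fold change of 1.62 ± 0.12 (SE, limma adjusted p = 6.43e-05) was the largest of the 46 genes. A2M overlaps the antisense gene A2M-AS1, and its close paralog PZP was at or under 0.0704 FPKM in every library. SERPINA1, the main inhibitor of neutrophil elastase, had an FPKM of 1438, 1343 and 1334 in Vector libraries and 1994, 2932 and 2813 in EGR1 libraries. The groups did not overlap, although EGR1 replicate 1 lay well below the other EGR1 libraries. The means differed 1.88-fold and the log2 fold change was 0.89 ± 0.17 (SE, limma adjusted p = 0.00535).

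PROS1 encodes protein S, a cofactor of the anticoagulant protein C. Its FPKM was 19.3, 27.3 and 24.4 with the vector and 30.6, 31.1 and 32.2 with EGR1. The Vector libraries were the lower and the more spread, and the log2 fold change of 0.40 ± 0.12 (SE) had a limma adjusted p of 0.0366. The call on PROS1 was lost (adjusted p from 0.0618 to 0.103) without EGR1 replicate 1, 2 or 3 or without Vector replicate 1 or 3, and its change was 0.19 after a correction for GC content and length (limma adjusted p = 0.0685). TFPI, the inhibitor of the tissue factor pathway, moved the other way. It had 18.4, 21.3 and 21.1 FPKM in Vector libraries and 12.2, 14.4 and 11.3 FPKM in EGR1 libraries. No library of either group overlapped the other, and TFPI fell by 0.64 on the log2 scale (standard error 0.11, limma adjusted p = 0.00388). PROC (protein C), SERPINC1 and SERPIND1 were not tested, with group means in PLC/PRF5 cells from 0.0491 FPKM (SERPINC1, Vector) to 1.01 FPKM (PROC, Vector).

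All 3 fibrinogen genes were tested and 1 was called. FGB, the gene of the beta chain, had 35.5, 48.7 and 39.7 FPKM in Vector libraries and 48.9, 60.2 and 61.1 FPKM in EGR1 libraries. The groups were apart by a narrow gap, between Vector replicate 2 and EGR1 replicate 1, and FGB rose by 0.45 on the log2 scale (standard error 0.13, limma adjusted p = 0.0326). Without Vector replicate 1 or 3 or EGR1 replicate 2 or 3 its limma adjusted p was 0.0992 to 0.106. With the GC and length correction the rise was 0.30. FGA, the gene of the alpha chain, had 238, 212 and 236 FPKM with the vector and 253, 269 and 276 FPKM with EGR1. Its groups did not overlap either, but the log2 difference of 0.22 (standard error 0.09) had a limma adjusted p of 0.105. FGG, the gene of the gamma chain, had 81.8, 120 (119.7 before rounding) and 103 FPKM with the vector and 100.2, 116 and 112 FPKM with EGR1, so its groups overlapped (log2 difference 0.12, limma adjusted p = 0.532).

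Of 10 procoagulant genes, 6 were tested, 3 fell and 0 rose. KNG1 encodes kininogen, the source of bradykinin and a cofactor of the contact pathway. It had 2.63, 3.29 and 2.32 FPKM in Vector libraries and 0.913, 1.11 and 0.965 FPKM in EGR1 libraries. With no overlap of the groups, KNG1 fell by 0.90 on the log2 scale (standard error 0.12, limma adjusted p = 0.00143), the largest fall of the 46 genes. F10, the gene of factor X, which cuts prothrombin, had 5.33, 3.98 and 4.47 FPKM with the vector and 2.08, 2.73 and 2.76 FPKM with EGR1. Every EGR1 library was the lower, and F10 fell by 0.66 (standard error 0.13, limma adjusted p = 0.00621). F2 encodes prothrombin. Its FPKM was 90.4, 92.3 and 87.2 in Vector libraries and 57.5, 74.2 and 77.8 in EGR1 libraries, with EGR1 replicate 1 the lowest of all 6. F2 fell by 0.37 (standard error 0.12, limma adjusted p = 0.0421), and that call was lost without Vector replicate 1, 2 or 3 or EGR1 replicate 2 (limma adjusted p from 0.0705 to 0.103). F5, F7 and F12 did not pass, with log2 differences of 0.23, -0.12 and -0.01 (limma adjusted p of 0.187, 0.574 and 0.978).

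In the complement groups, 9 of 21 genes were tested in PLC/PRF5 cells, 3 fell and 0 rose. C3, on which all routes of complement activation meet, had 193, 143 and 178 FPKM in Vector libraries and 111, 120 (119.6 before rounding) and 126 FPKM in EGR1 libraries. The groups lay apart and C3 fell by 0.51 on the log2 scale (standard error 0.12, limma adjusted p = 0.0141). Without Vector replicate 1 or 3 its limma adjusted p was 0.0529 or 0.0587. C8G had 55.2, 67.9 and 55.2 FPKM with the vector and 37.5, 39.7 and 40.2 FPKM with EGR1. It fell by 0.58 (standard error 0.10, limma adjusted p = 0.00406), with no overlap of the groups. SERPING1, the gene of the C1 inhibitor, which also blocks the contact pathway of clotting, had 1.49, 1.77 and 1.22 FPKM in Vector libraries and 0.488, 0.647 and 0.568 FPKM in EGR1 libraries. It fell by 0.67 (standard error 0.12, limma adjusted p = 0.00411) at these low levels. VTN, the gene of vitronectin, an adhesion protein that also restrains the membrane pore, was on average the second most abundant of the 46 genes in PLC/PRF5 cells, with 358, 357 and 341 FPKM in Vector libraries and 347, 381 and 396 FPKM in EGR1 libraries. Its groups overlapped and the log2 difference was 0.09 (limma adjusted p = 0.507). C2, C5, CD46, CD55 and CD59 did not pass either, with log2 differences from -0.08 (CD46) to 0.59 (CD59) and limma adjusted p from 0.102 (CD59) to 0.930 (C5). Of the 5 fibrinolysis genes, PLAUR and SERPINF2 were tested, with log2 differences of -0.12 and -0.19 (limma adjusted p of 0.396 and 0.247).

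**Figure D2:**
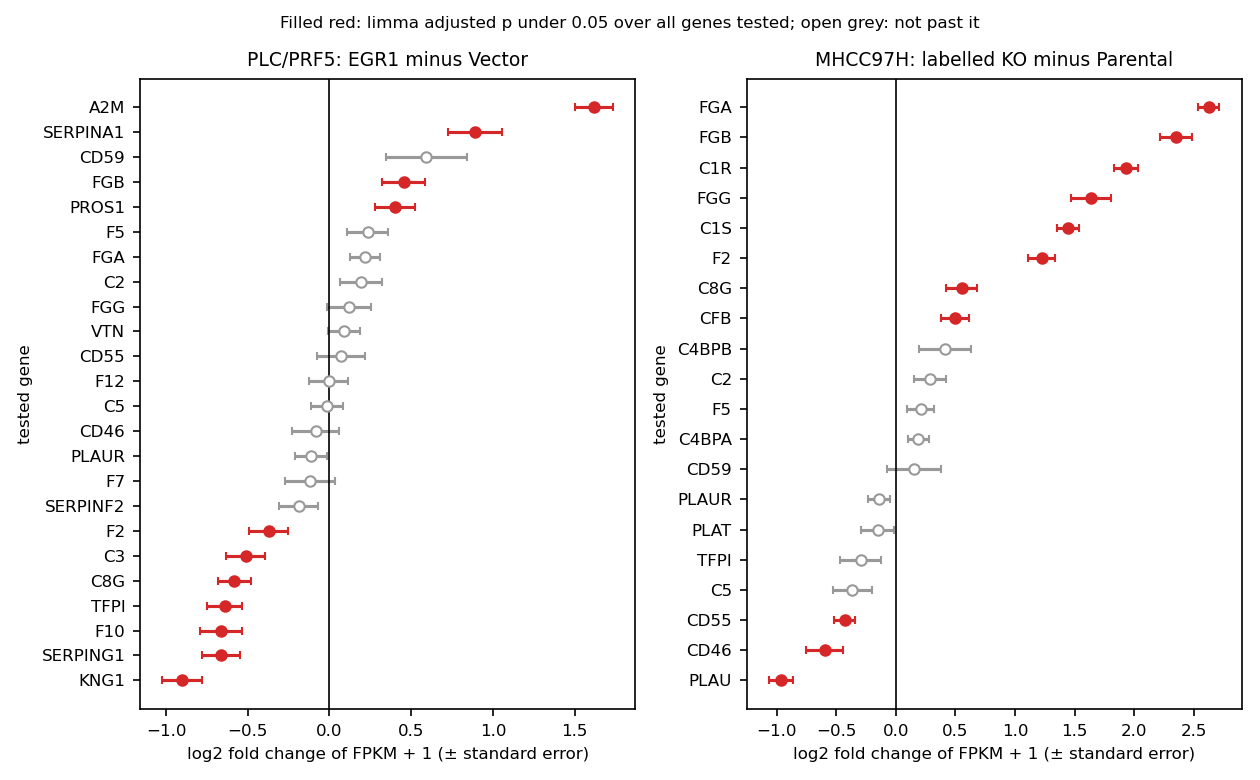
Log2 fold change of FPKM + 1 with its standard error for each tested gene, EGR1 minus Vector in PLC/PRF5 cells (left, 24 genes) and labelled knockout minus parental in MHCC97H cells (right, 20 genes). Filled points passed an adjusted p under 0.05, 11 on each side, led by A2M on the left and by FGA, FGB and C1R on the right, and after correction for GC content and length C8G and CD46 changed sign on the right.

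In MHCC97H cells the fibrinogen genes, the C1 protease genes C1R and C1S and prothrombin rose in the libraries labelled knockout, and PLAU fell. Of the 46 genes, 20 passed the filter, C8G and CFB with a parental mean under 1 FPKM. Of the 20, 11 were called (55%), against 66.3% of all 11577 genes tested, so the share was below that of all genes. The 8 higher genes were 40% of those tested, against 34.8% of all genes, and the 3 lower genes were 15%, against 31.5%. The groups did not overlap in 15 of the 20, against 71.8% of all genes. The median log2 fold change was 0.25, against 0.02 for all genes. With every library scaled to a common total, the median of all genes moved to -0.11. Of the 20 tested, 13 were then called (8 higher and 5 lower), beside 7587 of 11577 among all genes. Without the filter on low levels 17 of 40 tested were called (42.5%), against 42.8% of all genes. Transcript GC content and length together accounted for 52.5% of the variance among the log2 changes of all genes here, and for 17.9% in PLC/PRF5 cells. Across all genes the log2 change rose with GC content here (Spearman rank correlation 0.753) and fell with it in PLC/PRF5 cells (-0.438). For the 46 genes, values corrected for both are given where they matter.

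FGA, FGB and FGG rose together. FGA had 3.34, 3.17 and 3.06 FPKM in parental libraries and 23.9, 25.2 and 25.4 FPKM in those labelled knockout. The means differed 7.78-fold (3.19 ± 0.142 against 24.8 ± 0.841, SD, n = 3), a log2 fold change of 2.62 ± 0.09 (SE, limma adjusted p = 5.25e-07). FGB had 3.05, 2.04 and 2.80 FPKM in parental libraries and 16.6, 19.5 and 16.3 FPKM in the others, a 6.63-fold difference of the means. The groups were far apart beside their spread, with a log2 fold change of 2.35 ± 0.13 (SE, limma adjusted p = 7.04e-06). FGG had 2.36, 1.68 and 1.29 FPKM in parental libraries and 7.23, 9.07 and 6.44 FPKM in those labelled knockout, a 4.27-fold difference. Its log2 fold change was 1.63 ± 0.17 (SE, limma adjusted p = 7.26e-05). After the GC and length correction the rises were 2.89 for FGA, 2.64 for FGB and 2.08 for FGG, all with a limma adjusted p under 0.05.

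The fibrinogen genes form a cluster on the long arm of chromosome 4 of GRCh38. FGB lies at chr4:154562956-154571086 on the plus strand, FGA at chr4:154583126-154590766 on the minus strand, 12040 bases from it, and FGG at chr4:154604134-154612967 on the minus strand, 13368 bases further. None of the 3 overlaps another annotated gene. The ratios of FGB to FGG and of FGA to FGB differed between the cell lines. That of FGA to FGG overlapped, at 1.77 to 2.90 in Vector libraries and 1.42 to 2.37 in parental MHCC97H libraries. FPKM of FGB was 0.408 ± 0.0247 times that of FGG in Vector libraries and 0.517 ± 0.0297 times in EGR1 libraries, and 1.56 ± 0.533 times in parental MHCC97H libraries and 2.32 ± 0.191 times in those labelled knockout (SD, n = 3). FGA was 5.66 ± 1.19 times FGB in Vector libraries and 1.25 ± 0.265 times FGB in parental MHCC97H libraries (SD, n = 3). Every Vector library was above every parental library in the ratio of FGA to FGB, and below it in the ratio of FGB to FGG.

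C1R and C1S encode the proteases of the C1 complex, which starts the classical pathway of complement. C1R had 7.44, 7.66 and 9.23 FPKM in parental libraries and 34.2, 32.3 and 34.3 FPKM in those labelled knockout. The means differed 4.14-fold and the log2 fold change was 1.93 ± 0.10 (SE, limma adjusted p = 4.44e-06), or 1.54 after the GC and length correction. C1S had 16.2, 14.1 and 15.8 FPKM in parental libraries and 44.4, 40.7 and 45.3 FPKM in the others, and rose by 1.44 (standard error 0.09, limma adjusted p = 1.42e-05), with 1.41 after the correction. For neither gene did the groups overlap. They are neighbours on chromosome 12, C1S at chr12:6988259-7071032 on the plus strand and C1R at chr12:7080199-7092607 on the minus strand, 9167 bases apart. C1S overlaps EMG1 and C1R overlaps C1RL on the same strand, so reads of those genes may be shared.

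Among the other complement genes, CFB and C8G rose and CD46 and CD55 fell as deposited, and none of these 4 calls held after the GC and length correction. CFB, the protease of the alternative pathway, had 0.627, 0.808 and 0.818 FPKM in parental libraries and 1.35, 1.40 and 1.67 FPKM in those labelled knockout. Its rise of 0.50 on the log2 scale (standard error 0.12, limma adjusted p = 0.00448) became 0.18 with the correction (limma adjusted p = 0.140), and CFB overlaps C2 on the same strand. C8G had 0.880, 0.780 and 0.544 FPKM in parental libraries and 1.22, 1.69 and 1.72 FPKM in the others. The rise of 0.55 (standard error 0.13, limma adjusted p = 0.00557) turned to -0.14 with the correction, and its transcript has a GC content of 63.9%. CD46 and CD55 are membrane proteins that shield the own cells from complement. CD46 had 97.4, 77.9 and 65.8 FPKM in parental libraries and 56.0, 57.7 and 43.8 FPKM in those labelled knockout. It fell by 0.60 (standard error 0.15, limma adjusted p = 0.00736) as deposited and stood at 0.11 (limma adjusted p = 0.224) after the correction, with a GC content of 37.7%. CD55 had 39.9, 37.3 and 36.0 FPKM in parental libraries and 28.6, 29.3 and 25.4 FPKM in the others. Its fall of 0.43 (standard error 0.09, limma adjusted p = 0.00280) shrank to -0.06 with the correction. In none of these 4 genes did the groups overlap.

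C4BPA, C4BPB, C2, C5 and CD59 were tested in MHCC97H cells and did not pass. C4BPA, the alpha chain of the C4b-binding protein that slows the classical pathway, had 14.3, 13.7 and 13.3 FPKM in parental libraries and 16.3, 15.4 and 15.8 FPKM in those labelled knockout. These groups did not overlap, and the log2 difference of 0.19 had a limma adjusted p of 0.0769, against 0.38 and 0.00207 after the GC and length correction. C4BPB (0.41), C2 (0.29), C5 (-0.37) and CD59 (0.15) had limma adjusted p from 0.0733 (C5) to 0.568 (CD59).

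F2, FGA, FGB and FGG were among the 13 genes tested in both cell lines. F2 had 2.40, 2.33 and 2.97 FPKM in parental libraries and 6.74, 7.31 and 7.89 FPKM in those labelled knockout. The groups did not overlap and F2 rose by 1.22 (standard error 0.11, limma adjusted p = 5.34e-05), or by 0.62 after the GC and length correction (limma adjusted p = 0.000533). F5, which encodes a cofactor of factor X, was the other procoagulant gene tested here and had a log2 difference of 0.21 (limma adjusted p = 0.128), against 0.43 (limma adjusted p = 0.00331) with the correction. TFPI was the only inhibitor tested, with a log2 difference of -0.30 (limma adjusted p = 0.156).

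In fibrinolysis, PLAU fell. PLAU encodes urokinase, a protease that turns plasminogen into plasmin. It had 11.3, 10.8 and 10.7 FPKM in parental libraries and 4.84, 4.87 and 5.66 FPKM in those labelled knockout. The parental mean was 2.13 times the other, the groups did not overlap, and PLAU fell by 0.96 on the log2 scale (standard error 0.10, limma adjusted p = 7.80e-05). With the GC and length correction the change was -1.33. C10orf55 overlaps PLAU on the opposite strand. PLAUR, its receptor, had 11.8, 10.9 and 12.1 FPKM in parental libraries and 10.7, 10.3 and 10.3 FPKM in the others. The groups did not overlap, and the log2 difference of -0.14 had a limma adjusted p of 0.193, against -0.68 and 0.000395 with the correction. PLAT, the tissue plasminogen activator, did not pass (-0.15, limma adjusted p = 0.342).

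**Figure D3:**
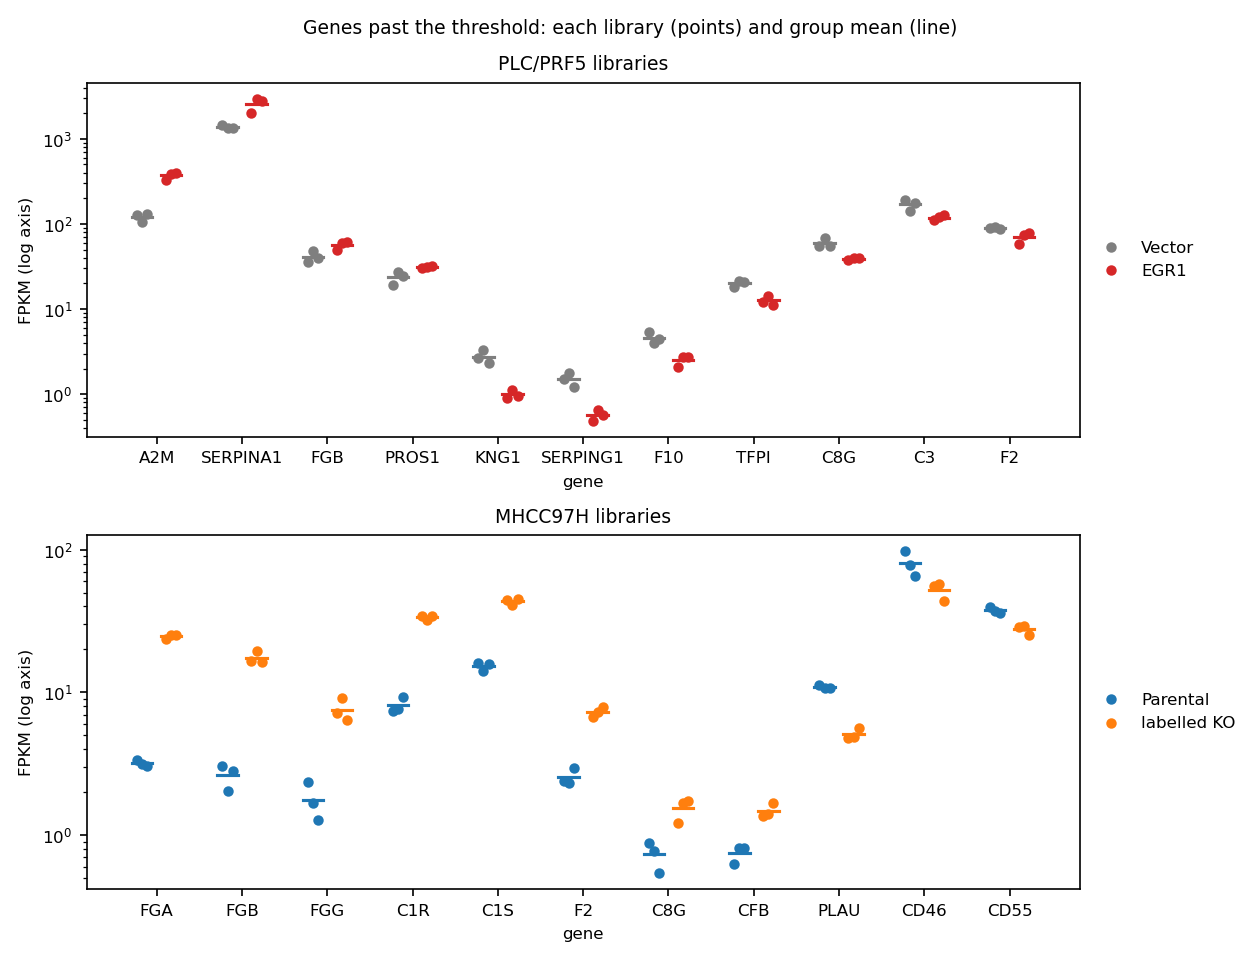
FPKM on a log axis of each library (points) with the group mean (line) for the 11 genes past the threshold in PLC/PRF5 cells (top, Vector and EGR1) and the 11 past it in MHCC97H cells (bottom, parental and labelled knockout). The points of the groups do not overlap for any of these genes, which were picked by the threshold. Of all genes tested, 47.7% did not overlap in PLC/PRF5 cells and 71.8% in MHCC97H cells. The gap is widest for A2M at the top and for FGA, FGB and C1R at the bottom, while the signs of C8G and CD46 at the bottom turned after correction for GC content and length.

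Markers of other cell types moved in MHCC97H cells too. The summed FPKM of 5 leukocyte markers was 27.0 to 30.6 in parental libraries and 52.7 to 58.1 in those labelled knockout, carried by CD68 (28.5 ± 1.87 and 53.8 ± 2.31 FPKM, SD, n = 3). The sum of 5 endothelial markers was 5.5 to 5.75 and 7.25 to 8.55, and that of 5 fibroblast and stellate cell markers 7.48 to 10.9 and 1.04 to 1.54, carried by LUM. The sum of 4 platelet markers was 0.561 to 0.629 and 0.909 to 2.11. PTPRC, CDH5 and COL1A2 stayed at the low levels given above. ALB, the albumin gene, had 0.885 ± 0.305 FPKM in parental libraries and 15.2 ± 1.22 FPKM in those labelled knockout (SD, n = 3). In PLC/PRF5 cells the leukocyte sum was 152 to 216 with the vector and 125 to 157 with EGR1, carried by LYZ, and the sums of the other 3 lists stayed at or under 2.66. The part of these markers in the changes above was not tested.

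The change differed between the cell lines for 16 of 28 genes tested (57.1%), against 63.8% of all genes, in a limma fit of all 12 libraries that tested the EGR1 change minus the change in the libraries labelled knockout. The Vector and parental libraries are separate, so the contrasts share no samples. Overexpression was done in 1 line and the labelled knockout in the other, so cell line and the way EGR1 was altered cannot be told apart. Fibrinogen and the C1 proteases were among the genes with the larger differences, -2.40 for FGA, -2.03 for C1R, -1.90 for FGB, -1.55 for C1S and -1.51 for FGG on the log2 scale. In PLC/PRF5 cells C1R had 0.513 to 0.999 FPKM in Vector libraries and 0.571 to 0.814 in EGR1 libraries, and C1S 0.978 to 1.10 and 0.750 to 1.14, so both overlapped there. F2 and C8G were called in both comparisons with opposite signs, falling with EGR1 overexpression and rising in the libraries labelled knockout, with differences of -1.59 and -1.13. The C8G difference was -0.41 (limma adjusted p = 0.0603) after the GC and length correction. FGB was called higher in both. A2M (1.63) and SERPINA1 (0.97) differed the other way. In MHCC97H cells A2M was at or under 0.0260 FPKM and SERPINA1 at or under 0.290 FPKM in every library.

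The control libraries of the cell lines differed in 28 of 29 genes tested (96.6%), against 79.8% of all genes. In parental MHCC97H libraries 11 genes were higher (37.9%, against 38.8% of all genes) and 17 lower (58.6%, against 40.9%). Of the 29 genes, 16 had a mean under 1 FPKM in 1 of the groups, and all 16 were called. These 16 passed the filter only through the other group, which fixed the direction of their difference. The median log2 difference was -1.42, against -0.02 for all genes. Cell line and any difference in how the lines were grown or processed cannot be told apart.

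**Figure D4:**
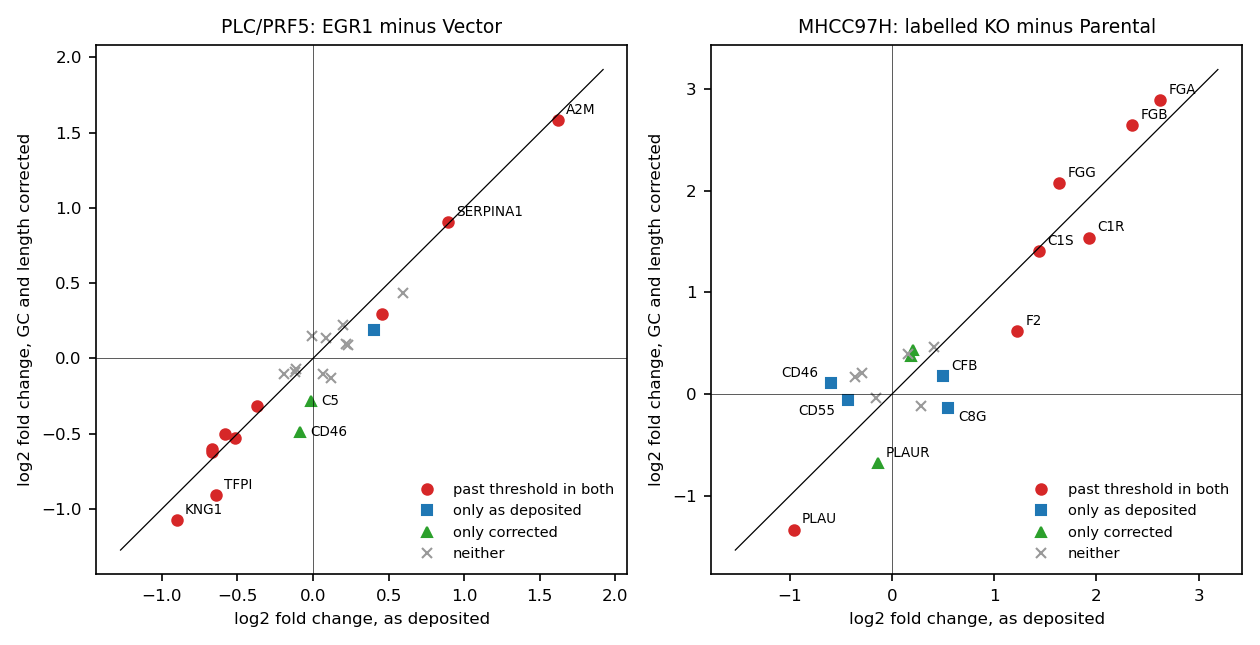
Log2 fold change as deposited (horizontal axis) against that after correction for transcript GC content and length (vertical axis) for each tested gene, with the line of equal values. In PLC/PRF5 cells (left) the called genes keep their sign, PROS1 falls short of the threshold (0.40 to 0.19) and TFPI moves from -0.64 to -0.91. CD46 and C5 on the left, and C4BPA, F5 and PLAUR on the right, pass the threshold only after the correction. Of the called genes in MHCC97H cells (right) CD46 and C8G cross 0 and CFB and CD55 fall short of the threshold, while FGA, FGB, FGG, C1R, C1S, F2 and PLAU stay past it.

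Plasma proteins led the lower side. SERPINA1 had 1334 to 1438 FPKM in Vector libraries and 0.189, 0.290 and 0.158 FPKM in parental MHCC97H libraries, a log2 difference of -10.15 (standard error 0.08). VTN had 341 to 358 FPKM and 0.694, 0.510 and 0.373 FPKM (-7.86). C3 had 143 to 193 FPKM and 0.0592, 0.0295 and 0.0637 FPKM (-7.35). All of these genes were under 1 FPKM in every parental MHCC97H library. A2M was listed at 0, 0 and 0.0260 FPKM in parental libraries (-6.91). FGA, at 212 to 238 FPKM in Vector libraries and 3.06 to 3.34 FPKM in parental libraries, had a difference of -5.77. All 3 fibrinogen genes and all 6 procoagulant genes tested were lower in parental MHCC97H cells, against 40.9% of all genes. F7, F10, F12 and KNG1, 4 of these 6, had a parental mean under 1 FPKM. They passed the filter only through the Vector libraries, which fixed their direction.

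The complement regulators C4BPA and CD55, the C1 proteases and urokinase led the other side, while VTN, of the same regulator group, was lower (-7.86). C4BPA had 0.0892, 0.135 and 0.176 FPKM in Vector libraries and 13.3 to 14.3 FPKM in parental MHCC97H libraries, a log2 difference of 3.70 (standard error 0.09). PLAU had 0.0585, 0.183 and 0.0198 FPKM in Vector libraries and 10.7 to 11.3 FPKM in parental libraries (3.46). CD55 had 2.32, 3.72 and 3.80 FPKM in Vector libraries (3.20). C1S (3.00) and C1R (2.34) were higher as well. PLAUR (0.89), PLAT (0.67), CD59 (1.11), C4BPB (1.02), TFPI (0.88) and C2 (0.71) were the other genes higher in parental MHCC97H cells. CD46 did not pass, at 71.1, 109.5 and 91.3 FPKM in Vector libraries and 65.8 to 97.4 FPKM in parental libraries (log2 difference -0.17, limma adjusted p = 0.404), although it was called lower after the GC and length correction (-0.81).

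Other genes of these pathways, 63 in all, were read from a second list. Their values are as deposited, without the GC and length correction. With EGR1 overexpression 23 were tested, 6 rose and 6 fell, and in the libraries labelled knockout 23 were tested, 14 rose and 6 fell. The shares called were 52.2% and 87.0%, against 29.6% and 66.3% of all genes. The median log2 fold changes were 0.00 and 0.33, against 0.09 and 0.02 for all genes. ITIH2, a heavy chain of the inter-alpha-trypsin inhibitor, had 93.8, 87.9 and 97.6 FPKM in Vector libraries and 223, 245 and 249 FPKM in EGR1 libraries, a rise of 1.35 (limma adjusted p = 4.58e-05), and it rose by 0.57 in the libraries labelled knockout (limma adjusted p = 0.00108). HABP2, a plasma serine protease that acts on factor VII and fibrinogen, rose in both as well, by 1.09 (limma adjusted p = 0.000335) and by 1.90 (limma adjusted p = 2.13e-05). HPN, the gene of the membrane protease hepsin, had 29.3, 36.3 and 28.0 FPKM with the vector and 9.38, 11.6 and 11.5 FPKM with EGR1. HPN fell by 1.44 there (limma adjusted p = 0.000165) and rose by 0.63 in the libraries labelled knockout (limma adjusted p = 0.00354). CLU, the gene of clusterin, fell by 0.53 with EGR1 (limma adjusted p = 0.00443) and rose by 0.57 in the libraries labelled knockout (limma adjusted p = 0.00130). F3, the gene of tissue factor, which starts coagulation, rose by 0.58 with EGR1 (limma adjusted p = 0.00710) and fell by 0.38 in the libraries labelled knockout (limma adjusted p = 0.0159).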

How the data were processed

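RNA of PLC/PRF5 (Vector, EGR1) and MHCC97H cells (parental, labelled EGR1 knockout) was extracted with Trizol, purified with oligo(dT) beads, treated with DSN (duplex-specific nuclease) as libraries and sequenced on an Illumina NovaSeq instrument, 3 libraries a group. The authors deposited FPKM per gene name, made with StringTie on hg38 per the submitters' processing notes. The aligner and the annotation are not given in the sources used here. Of 22963 names, 3031 were assembled loci. FPKM keep no read numbers, so depth is unknown, and 5407 to 6624 names were listed at 0 in a library. Pearson's r between replicates, across genes, was 0.985 to 0.996.

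Values were tested as log2(FPKM + 1) with limma 3.58.1 (intensity trend, no covariates) in R 4.3.3, keeping genes that averaged 1 FPKM or more in the libraries compared, with 2-sided p-values adjusted by the Benjamini-Hochberg method over all genes tested and a threshold of 0.05. A fold change on this scale understates the change of low genes. With 3 libraries against 3, an exact permutation test of a single gene cannot go below 0.1. The fits were tested on simulated data. Coordinates, GC content and length came from GENCODE release 29 (19458 of 19932 names other than assembled loci). The alternatives were quantile normalization, a common total, a pseudocount of 0.1, every gene listed above 0, no trend, a joint fit of the 12 libraries, a replicate block, a spline correction (5 degrees of freedom) for GC content and length, which also removes biological change that follows them, and leaving out each library. Values per library are given for genes past the threshold with groups that did not overlap (at most 12 a comparison, by size), those called in both comparisons with EGR1, those of at least 100 FPKM on average in a group, and the 5 highest and 5 lowest between the control groups, and other genes were named by role. Values of C4BPA, VTN, FGA, FGG and PLAUR outside this rule and the motifs were chosen after their values were seen. Of the second list, F3, CLU and genes called with a log2 change of at least 1 are named, and a gene that the rule also names is not reported here. The genes and lists were chosen with earlier results of these data known. Promoters came from RefSeq (GRCh38.p14). Figures used matplotlib 3.10.9 (Python 3.11.15).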

Additional observations from a re-analysis of the deposited data

Results flagged for a closer look

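These results were singled out because the change with EGR1 overexpression in PLC/PRF5 cells differed from the change in the MHCC97H libraries labelled knockout, by a test of the difference itself (the interaction in a limma fit of all 12 libraries, adjusted over all genes tested). FGA (-2.40, limma adjusted p = 1.42e-08), FGB (-1.90, limma adjusted p = 1.02e-05) and FGG (-1.51, limma adjusted p = 0.000143) of fibrinogen and C1R (-2.03, limma adjusted p = 2.18e-06) and C1S (-1.55, limma adjusted p = 3.58e-06) of the C1 complex differed with a larger rise in the libraries labelled knockout. The same sign was found for F2 (-1.59, limma adjusted p = 7.77e-06), KNG1 (-1.32, limma adjusted p = 2.12e-05), C8G (-1.13, limma adjusted p = 9.38e-05), F10 (-0.85, limma adjusted p = 0.000372), C3 (-0.68, limma adjusted p = 0.00156), SERPINF2 (-0.58, limma adjusted p = 0.00382) and C4BPA (-0.34, limma adjusted p = 0.0161). A2M (1.63, limma adjusted p = 2.27e-06), SERPINA1 (0.97, limma adjusted p = 0.000595), PLAU (0.92, limma adjusted p = 8.61e-05) and CD55 (0.50, limma adjusted p = 0.0257) had the opposite sign. KNG1, F10, C3, SERPINF2, A2M and SERPINA1 were under 1 FPKM on average in both MHCC97H groups, and C1R, C4BPA and PLAU in both PLC/PRF5 groups, so their differences rest mostly on 1 cell line. The cell lines also differ in how EGR1 was altered, and the causes were not tested.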

How the results depend on the processing

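The alternatives gave 1615 values of single genes. Outside the fits that left out a library, 765 kept direction and side of the threshold, 16 lost the threshold, 33 gained it and 38 changed sign. Of these 38, 30 belonged to genes that were not past the threshold as deposited. The counts of genes called in the order EGR1 overexpression, labelled knockout, control lines and difference were 11, 11, 28 and 16. A filter on any FPKM above 0 moved the second to 17 (13 higher, 4 lower), from genes that were newly tested and from C4BPA, which was tested before (limma adjusted p = 0.0484). The first kept its count of 11 by exchange (3 higher, 8 lower), or 26.2% of 42 tested, against 15.1% of all genes. FGB, PROS1 and F2 left it. SERPIND1 (limma adjusted p = 0.0265), MBL2 (0.0398) and C4BPA (0.0486), all under 1 FPKM there, entered it. Leaving out each library in turn gave 6 to 12, 11 to 13, 27 to 28 and 15 to 19, and 6 was reached without Vector replicate 1 and without Vector replicate 3. Of all genes, 2349 of 11704 and 2246 of 11697 were called in these fits. With the replicate block the counts were 11, 13, 28 and 16, where TFPI (-0.30, limma adjusted p = 0.0198) and C5 (-0.37, limma adjusted p = 0.0181) were added in the second. Over all genes the counts with the block were 3253, 7987, 9249 and 7839. Deviations of same-numbered libraries correlated at -0.128 to 0.140 in PLC/PRF5 cells and 0.0185 to 0.466 in MHCC97H cells. Those of differently numbered libraries correlated at -0.168 to 0.198 and at -0.412 to 0.392. With only 3 same-numbered values a comparison, these correlations cannot decide whether the numbers pair the samples.

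With the GC and length correction, and with the replicate block added to it, called genes whose signs turned were C8G (-0.14) and CD46 (0.11) in the libraries labelled knockout and CD55 (-0.037) and SERPINF2 (0.13) in the difference between cell lines, none with an adjusted p under 0.05. Among genes not called as deposited, the sign turned with the same correction for C2 (-0.11), C5 (0.16) and TFPI (0.20) in the libraries labelled knockout, for FGG (-0.13), CD55 (-0.11) and F12 (0.15) with EGR1 overexpression, and for C2 (0.31) in the difference, and CD46 (-0.57), C5 (-0.43), PROS1 (-0.41) and F5 (-0.33) passed the threshold there with the sign opposite to that as deposited. In the difference, C8G (-0.41) and F10 (-0.16) lost the threshold with the correction, TFPI (-1.10), F12 (0.92), VTN (0.87) and PLAUR (0.58) gained it, and F2 and C3 shrank to -0.97 and -0.32. With EGR1 overexpression CD46 (-0.49) and C5 (-0.28) gained it. Quantile normalization turned the sign of CD55 with EGR1 overexpression (-0.096), CD59 in the libraries labelled knockout (-0.018), CD46 between the control lines (0.16) and F12 (-0.12), PLAUR (-0.12) and F5 (-0.19) in the difference, where a common total turned C2 (0.0056) and a pseudocount of 0.1 turned PROS1 (-0.032). Leaving out a library turned 20 signs, all of genes not called as deposited. With EGR1 overexpression the values then ran from -0.026 to 0.25 for FGG, -0.10 to 0.16 for CD55, -0.12 to 0.071 for F12, -0.25 to 0.061 for CD46, -0.069 to 0.052 for C5 and -0.23 to 0.029 for F7. They ran from -0.025 to 0.42 for CD59 in the libraries labelled knockout, and in the difference from -0.020 to 0.17 for F12, -0.017 to 0.077 for PLAUR, -0.22 to 0.034 for C2 and -0.12 to 0.12 for F5. The share of higher genes among all called with EGR1 overexpression was 64.8% as deposited, 46% after quantile normalization and 48.6% after the GC and length correction, and in the libraries labelled knockout 52.5% as deposited and 41.6% with a common total. The genes described here were split into 4 higher and 7 lower after quantile normalization and as deposited, and into 3 and 9 after the correction. F2, FGB and PROS1 also lost the threshold with the filter above 0 (limma adjusted p of 0.0864, 0.0803 and 0.0801), C4BPA in the difference with a common total (limma adjusted p = 0.178) and PLAU there with a pseudocount of 0.1 (limma adjusted p = 0.125). Single libraries also decided calls that were missed: FGA (limma adjusted p = 0.0439) and CD59 (0.0365) without EGR1 replicate 1, C2 (0.0151) and C5 (0.0358) without labelled knockout replicate 2, and TFPI (0.0245) and C5 (0.0225) without parental replicate 3. The CD55 difference was lost without labelled knockout replicate 3 or parental replicate 1 (limma adjusted p of 0.0619 and 0.0587). Causes were not tested.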
